A study of Mus musculus with 5 samples.

Results

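Non-clustered protocadherins are adhesion proteins of the cadherin superfamily whose genes lie singly in the genome, apart from the tandem alpha, beta and gamma arrays. The 9 genes described here are Pcdh1, Pcdh7, Pcdh8, Pcdh9, Pcdh10, Pcdh15, Pcdh17, Pcdh18 and Pcdh20, taken by name as autosomal family members outside those arrays. The autosomal and non-clustered Pcdh12 was not on that list and is given below with other family members. The autosomes hold 20665 protein-coding genes in the annotation used. Shares given beside the members' counts are over these autosomal genes, or over the subset, windows or regions named with them. Chromatin came from basal epidermal cells of the back skin of control mice aged 71 days. The mice carried K14-RFP and K10-H2B-GFP, keratin-promoter reporters that light up basal and suprabasal keratinocytes, and the sorted cells were Sca1 positive, RFP high and GFP negative. Immunoprecipitation used an antibody to H3K27me3 (2 libraries) or to H2AK119ub (2 libraries), with 1 input library, and the labels name no other genotype, treatment or age. Each mark is represented by 1 list of called regions giving chromosome, start and end only (15102 regions for H3K27me3, 33155 for H2AK119ub), so read depth and the spread between libraries are unknown and no test was possible. Everything below describes those lists.

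H3K27me3 is the trimethylation of histone H3 laid down by Polycomb repressive complex 2, and H2AK119ub is the ubiquitin placed on histone H2A by Polycomb repressive complex 1. Both are found at the starts of developmental genes that a cell type does not use. Non-clustered protocadherins act mainly in the nervous system and in embryonic tissues, where they mediate weak adhesion, cell sorting and axon growth. The delta-1 branch includes Pcdh1, Pcdh7 and Pcdh9, the delta-2 branch Pcdh8, Pcdh10, Pcdh17 and Pcdh18, while Pcdh20 and the tip-link protein Pcdh15 stand outside both.

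Promoter windows from RefSeq (mm10, 250 bases before to 50 bases after an annotated start) were given for 8 of the 9 genes, and none was given for Pcdh1. The first set shows the 4 delta-2 members, all with both marks at the promoter, a state shared with Pcdh20 and with 14.1% of autosomal genes with a window. Capitals mark ATTGGNTGG, a longer form of the inverted CCAAT box, which each of the 4 windows holds once.
Pcdh8, chr14:79771263-79771562, minus strand: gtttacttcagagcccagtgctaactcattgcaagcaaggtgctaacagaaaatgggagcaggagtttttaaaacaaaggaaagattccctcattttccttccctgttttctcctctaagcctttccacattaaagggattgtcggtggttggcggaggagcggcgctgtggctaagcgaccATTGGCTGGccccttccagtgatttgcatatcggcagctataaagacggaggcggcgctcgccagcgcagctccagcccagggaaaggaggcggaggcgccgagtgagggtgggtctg
Pcdh10, chr3:45378148-45378447, plus strand: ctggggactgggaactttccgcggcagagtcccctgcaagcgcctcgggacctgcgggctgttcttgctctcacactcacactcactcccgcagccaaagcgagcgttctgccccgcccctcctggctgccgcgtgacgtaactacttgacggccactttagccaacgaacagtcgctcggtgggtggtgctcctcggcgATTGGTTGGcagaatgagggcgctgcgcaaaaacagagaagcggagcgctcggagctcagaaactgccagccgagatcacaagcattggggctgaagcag
Pcdh17, chr14:84443313-84443612, plus strand: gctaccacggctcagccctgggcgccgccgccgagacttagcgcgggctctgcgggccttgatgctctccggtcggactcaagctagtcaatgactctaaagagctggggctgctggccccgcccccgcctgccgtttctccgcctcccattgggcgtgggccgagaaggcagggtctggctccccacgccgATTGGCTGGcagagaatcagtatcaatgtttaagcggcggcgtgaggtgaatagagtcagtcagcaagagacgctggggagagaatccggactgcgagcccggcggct
Pcdh18, chr3:49757267-49757566, minus strand: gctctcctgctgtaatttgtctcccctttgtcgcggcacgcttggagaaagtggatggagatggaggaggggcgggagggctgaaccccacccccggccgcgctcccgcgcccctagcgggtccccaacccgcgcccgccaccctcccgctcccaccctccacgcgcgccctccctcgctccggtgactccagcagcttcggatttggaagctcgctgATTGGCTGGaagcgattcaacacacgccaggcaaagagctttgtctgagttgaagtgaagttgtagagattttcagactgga

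The second set shows the genes whose windows held the fewest CG dinucleotides among the 8, with CG in capitals. The window of Pcdh7, with 11, was not far below the median of 14 over autosomal windows. The windows of Pcdh7 and Pcdh15 held neither mark, whereas that of Pcdh20, which had the fewest CG dinucleotides of the 8 genes, held both.
Pcdh7, chr5:57717831-57718130, plus strand: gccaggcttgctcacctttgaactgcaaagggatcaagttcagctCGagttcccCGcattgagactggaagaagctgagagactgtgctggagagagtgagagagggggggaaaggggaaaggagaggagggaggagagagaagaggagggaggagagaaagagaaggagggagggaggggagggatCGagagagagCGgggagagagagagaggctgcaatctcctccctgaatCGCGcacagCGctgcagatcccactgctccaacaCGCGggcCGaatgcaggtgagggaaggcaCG
Pcdh15, chr10:73821617-73821916, plus strand: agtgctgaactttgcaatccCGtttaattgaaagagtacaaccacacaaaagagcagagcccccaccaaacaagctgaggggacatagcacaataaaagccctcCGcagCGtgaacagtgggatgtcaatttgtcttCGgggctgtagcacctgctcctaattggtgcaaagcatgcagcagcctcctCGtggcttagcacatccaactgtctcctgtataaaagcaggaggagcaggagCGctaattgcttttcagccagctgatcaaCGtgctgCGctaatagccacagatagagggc
Pcdh20, chr14:88471347-88471646, minus strand: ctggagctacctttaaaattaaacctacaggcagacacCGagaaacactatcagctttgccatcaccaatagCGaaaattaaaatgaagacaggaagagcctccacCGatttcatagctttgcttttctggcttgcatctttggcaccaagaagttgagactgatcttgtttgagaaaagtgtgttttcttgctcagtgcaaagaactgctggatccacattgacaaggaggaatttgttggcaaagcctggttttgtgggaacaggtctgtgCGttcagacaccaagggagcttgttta

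Called H3K27me3 was found over most of the 9 genes, with a region at the 5′ end of the gene or, for Pcdh1, at its upper-coordinate end. Over the gene body plus 20 kb on each side, 8 of the 9 genes met an H3K27me3 region, against 42.5% of all autosomal protein-coding genes, and Pcdh7 was the exception. H2AK119ub was met by 7 of 9, against 71.5% of all, and Pcdh9 and Pcdh15 were the exceptions. Both marks were met by 6 of 9, against 38.5%. H3K27me3 without H2AK119ub, the state of Pcdh9 and Pcdh15, was found at 2 of 9, against 3.98%, and H2AK119ub without H3K27me3, the state of Pcdh7, at 1 of 9, against 32.9%. The share of genes with H2AK119ub was thus close to the background, and that with H3K27me3 lay above it. Of the 8 genes with H3K27me3, 7 had a single region, against 57.1% of the 8788 autosomal genes with H3K27me3 in that window. The outermost annotated 5′ end lay in a region in all 7 of them with a strand given, against 38.8% of 6868 such genes, and a region also contained the upper-coordinate end of Pcdh1. When the H2AK119ub list was cut to the 15102 widest regions, the length of the other list, 4 of 9 genes met it, namely Pcdh1, Pcdh8, Pcdh10 and Pcdh17, against 56.5% of all autosomal genes with the same shortened list.

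**Figure D1:**
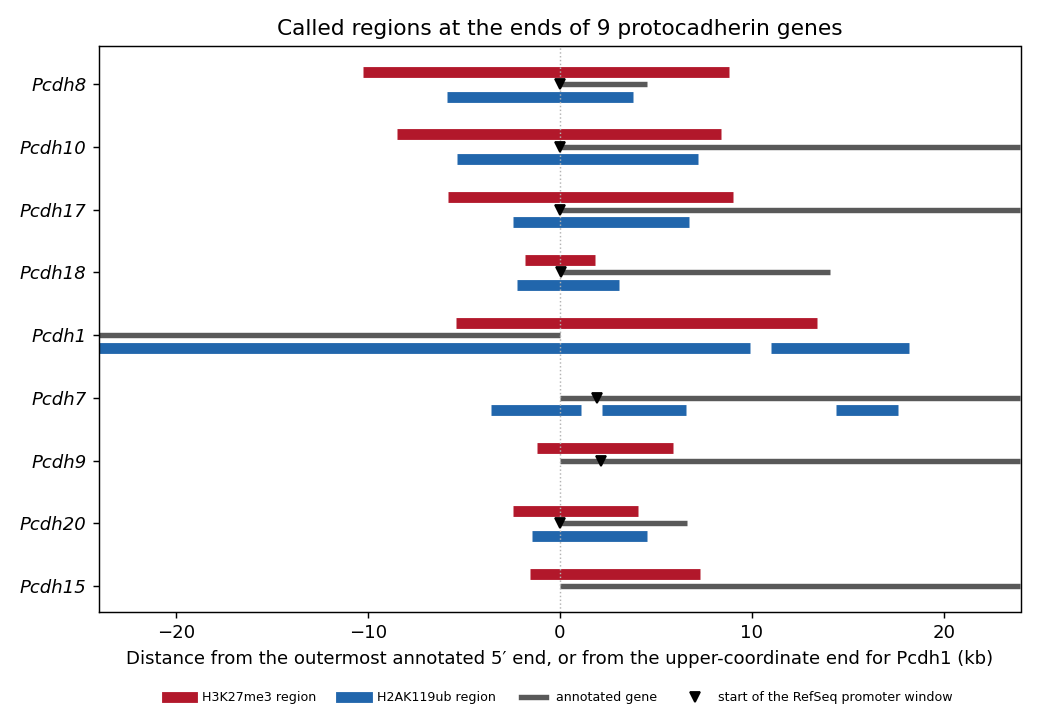
Called H3K27me3 (red) and H2AK119ub (blue) regions within 24 kb of the end of each gene; the x axis is distance in kb from the outermost annotated 5′ end, with the gene (grey) to the right. No strand was given for Pcdh1, so it is drawn from its upper-coordinate end with lower coordinates to the left. Triangles mark the starts of the promoter windows; that of Pcdh15 lies 726 kb to the right, outside the frame. H3K27me3 spans the drawn end of every gene except Pcdh7, and H2AK119ub is missing at Pcdh9 and Pcdh15.

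At the promoter windows most members with H3K27me3 also had H2AK119ub, as did most autosomal genes with H3K27me3 there. H3K27me3 lay at the promoter of 6 of the 8 genes, against 16.8% of the 16457 autosomal genes with a window. H2AK119ub lay at 5 of 8, against 38.9%, and those 5 were Pcdh8, Pcdh10, Pcdh17, Pcdh18 and Pcdh20. All 5 also had H3K27me3, and both marks together were found at 14.1% of genes. Of the 2773 autosomal genes with H3K27me3 at the promoter, 2315 had both marks, so 5 of the 6 members with H3K27me3 is not particular to them. Pcdh9 had H3K27me3 alone, a class that holds 2.78% of genes, and no member had H2AK119ub alone, the class of 24.9% of genes. Pcdh7 and Pcdh15 had neither, against 58.3%. Each mark that touched one of these windows covered it whole, which was so for nearly all marked genes, at 97.1% for H3K27me3 and 96.6% for H2AK119ub. With the shortened H2AK119ub list, H2AK119ub was left at 3 of the 8 genes, against 31.2% of genes, and both marks at the same 3, against 11.3%.

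All 4 delta-2 members had both marks at the start, against 14.1% of all autosomal genes with a promoter window. Pcdh20, outside this branch, had both as well. Among the 8 genes with a promoter window, Pcdh8, Pcdh10 and Pcdh17 had the widest H3K27me3 regions. Pcdh8, also known as paraxial protocadherin for its role in early mesoderm, is a gene of 4.54 kb on chromosome 14 from 79766772 to 79771312. One H3K27me3 region of 19.1 kb, from 79762469 to 79781570, contained the entire gene and reached 10.3 kb upstream of the start and 8.84 kb downstream of it. The H2AK119ub region of Pcdh8 was 9.66 kb wide, from 79767495 to 79777158, and lay wholly inside the H3K27me3 region. Of the Pcdh8 window of 44.5 kb, 42.9% was in H3K27me3 and 21.7% in H2AK119ub.

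Pcdh10, which guides axons in the forebrain, spans 56.2 kb of chromosome 3 from 45378398 to 45434579. Its H3K27me3 region measured 16.9 kb, from 45369921 to 45386797, and was nearly symmetric about the start, with 8.48 kb upstream and 8.40 kb downstream. The H2AK119ub region of 12.5 kb, from 45373062 to 45385603, was again contained in it, and both marks filled 100% of the sequence within 5 kb of the start. The rest of the gene, beyond 20 kb from its 5′ end, held no region of either mark.

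Pcdh17, a presynaptic adhesion protein, lies on chromosome 14 from 84443563 to 84537565. H3K27me3 covered 14.9 kb, from 84437726 to 84452601, and H2AK119ub covered 9.17 kb inside it, from 84441137 to 84450308. Both regions of Pcdh17 reached further into the gene than away from it, H3K27me3 by 9.04 kb against 5.84 kb and H2AK119ub by 6.75 kb against 2.43 kb.

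Pcdh18, whose mouse protein binds the adaptor Dab1, is a gene of 14.1 kb on chromosome 3 from 49743291 to 49757383. It had the narrowest H3K27me3 region of the 9 genes, 3.66 kb from 49755550 to 49759205. Here the order of the marks was turned round, since this region lay inside an H2AK119ub region of 5.33 kb, from 49754276 to 49759604. Among the 2773 autosomal genes with H3K27me3 at the promoter, 6.46% had a narrower region than Pcdh18, compared with 69.2% narrower than that of Pcdh8, 64.6% narrower than that of Pcdh10 and 59.6% narrower than that of Pcdh17.

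The delta-1 genes had no common pattern, and only Pcdh7 and Pcdh9 among them had a promoter window. Pcdh1, known from the airway epithelium, is the one member in a neighbourhood of dense H2AK119ub. It spans chromosome 18 from 38185914 to 38212048, and an H2AK119ub region of 81.4 kb, from 38140571 to 38221982, contained the whole gene. A second H2AK119ub region of 7.17 kb began 1.09 kb further on. Of the Pcdh1 window, 95.6% was in H2AK119ub and 48.4% in H3K27me3, the highest shares of the 9 genes for both marks. H3K27me3 at Pcdh1 was split into 3 regions: one of 18.8 kb over the upper-coordinate end of the gene, from 38206655 to 38225426, and regions of 7.42 kb and 10.1 kb beyond the opposite end. Between them a stretch of 26.2 kb, which holds most of the gene body, had H2AK119ub without H3K27me3. The region over the upper end also covered the lower-coordinate end of the lncRNA gene 2010320O07Rik, so it cannot be given to Pcdh1 alone. The regions of 10.1 kb and 7.42 kb lay wholly outside the gene body, and both overlapped the lncRNA gene Gm38566. The region of 10.1 kb also contained the lncRNA gene Gm30259. Where these regions lie in the window, they count toward the 48.4%.

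Pcdh7, whose frog counterpart NF-protocadherin acts in the embryonic ectoderm, was the member without H3K27me3. The gene spans 417 kb of chromosome 5 from 57716145 to 58133236, and 5 H2AK119ub regions met it. They measured 4.74 kb, 4.34 kb, 3.20 kb, 1.40 kb and 0.761 kb in order along the gene, so that each was narrower than the one before. The first, from 57712541 to 57717275, covered the outermost annotated end, and the second began at 57718371. The RefSeq promoter window printed above for Pcdh7 fell in the gap of 1.09 kb between them, which left its start 806 bp from one region and 290 bp from the other. H2AK119ub filled 85.3% of the sequence within 5 kb of that start. A window free of H2AK119ub with a region within 1 kb on both sides was found at 5.39% of 12214 free autosomal windows, and Pcdh7 was the 1 case among the 4 free windows of the members.

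Pcdh9, a neuronal protein, showed the opposite arrangement. Its gene spans 879 kb of chromosome 14 from 93013700 to 93892834, and the entire window of 919 kb held 1 region, of H3K27me3, 7.10 kb wide from 93886921 to 93894019. This region covered both annotated promoter windows of Pcdh9, and H2AK119ub was not called anywhere in the window.

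Pcdh15 and Pcdh20 differed sharply in size. Pcdh15 forms the tip links of hair cells in the inner ear together with Cdh23. It spans 1554 kb of chromosome 10 from 73096277 to 74649831, and its only region was 8.89 kb of H3K27me3, from 73094714 to 73103603, over the outermost annotated end. The RefSeq promoter window of Pcdh15 begins from a start 726 kb further into the gene, and the nearest region was 718 kb away from it. The marked end and the annotated promoter are thus different places in Pcdh15, and which start these cells could use was not analysed here. Pcdh20 is a gene of 6.65 kb on chromosome 14 from 88464743 to 88471396. At its start, H3K27me3 of 6.52 kb (88467330 to 88473847) and H2AK119ub of 6.01 kb (88466848 to 88472862) were staggered and shared 5.53 kb. A further H2AK119ub region of 3.87 kb, 26035 bp downstream of the start, entered the Pcdh20 window by only 619 bp.

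**Figure D2:**
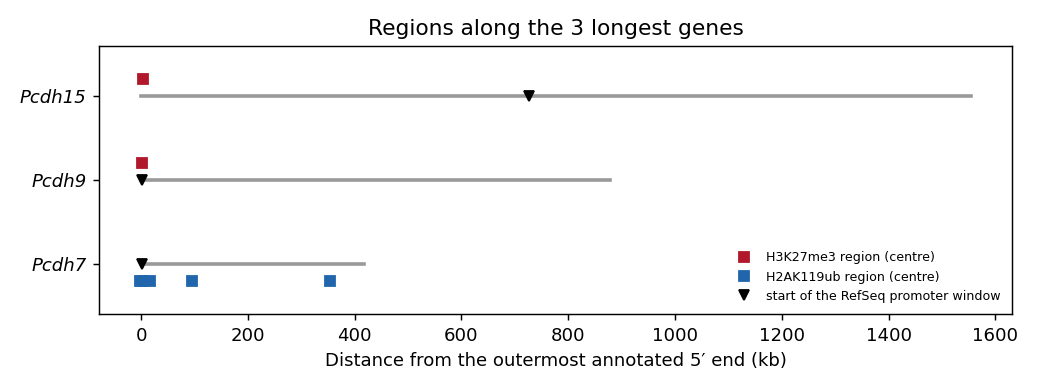
Called regions along Pcdh15, Pcdh9 and Pcdh7; the x axis is distance in kb from the outermost annotated 5′ end, grey lines are the genes, squares the centres of regions and triangles the starts of the RefSeq promoter windows. Regions crowd at the 5′ end, the start used for the Pcdh15 window lies 726 kb away from its region, and Pcdh7 has 2 distant H2AK119ub regions.

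Away from the 5′ ends the long genes were almost bare. Beyond 20 kb from the outermost end, 1534 kb of Pcdh15, 859 kb of Pcdh9, 74.0 kb of Pcdh17 and 36.2 kb of Pcdh10 held no region, and 397 kb of Pcdh7 held 2 H2AK119ub regions with 2.16 kb in all. Among the 3 members of 400 kb or more, 2 met H3K27me3, against 82.2% of the 338 autosomal genes of that length, and 1 met H2AK119ub, against 74.6%. None of the 3 met both, against 64.8%. Pcdh9 and Pcdh15 thus belonged to the 17.5% of such genes with H3K27me3 without H2AK119ub, and Pcdh7 to the 9.76% with the reverse.

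Covered shares of the window were lowest in the 3 longest genes. The median share of the window in H3K27me3 was 11.1% over the 9 genes (lowest 0, highest 48.4%), against a median of 0 and an upper quartile of 11.2% over 20656 other autosomal genes. For H2AK119ub the median was 9.85% (lowest 0, highest 95.6%), against 21.0% over the other genes. Within 5 kb of a promoter start, where gene length plays no part, the medians over the 8 genes were 68.1% for H3K27me3 and 67.2% for H2AK119ub, against 0 and 29.2% over 16449 other genes.

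**Figure D3:**
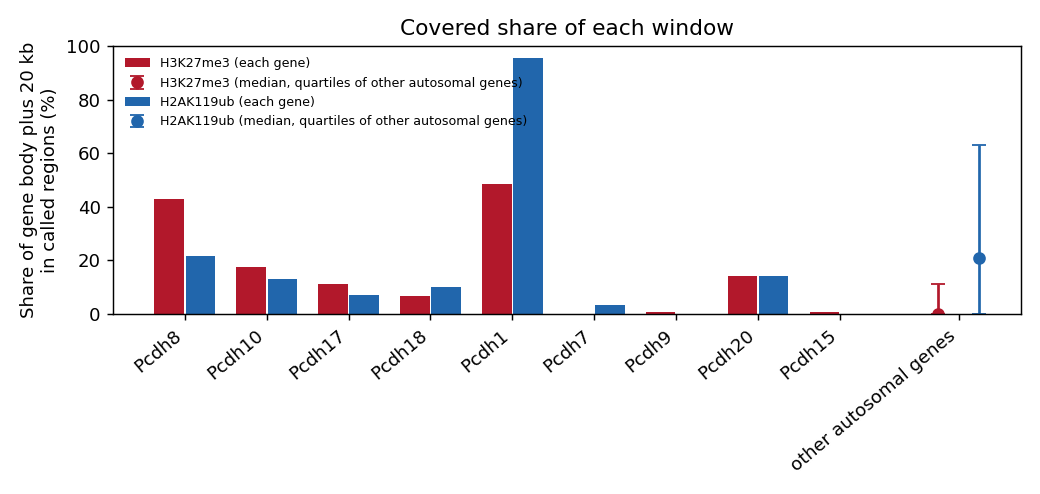
Share of the gene body plus 20 kb on each side (y axis, %) in called H3K27me3 (red) and H2AK119ub (blue) regions, 1 bar per gene and mark; the points at the right give the median of 20656 other autosomal protein-coding genes with bars from the lower to the upper quartile. Pcdh1 is highest for both marks, at 48.4% and 95.6%, and Pcdh7, Pcdh9 and Pcdh15 lie near 0.

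At the 5 promoter windows with H2AK119ub, the regions were narrower than at most other marked genes; Pcdh1, which met a region of 81.4 kb, had no window and is not among them. These 5 regions had a median of 9.17 kb, against 22.2 kb at 6405 other marked autosomal genes, and between 8.0% (Pcdh18) and 31.1% (Pcdh10) of marked autosomal genes had a narrower one. H3K27me3 promoter regions had a median of 11.0 kb over 6 genes, against 11.9 kb over 2767 other autosomal genes. An H2AK119ub region inside the H3K27me3 region, as at Pcdh8, Pcdh10 and Pcdh17, occurred at 3 of 5 members with both marks, against 26.7% of 2311 autosomal genes with both at the same window. The reverse order of Pcdh18 occurred at 45.5% and the staggered order of Pcdh20 at 27.9% of such genes.

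Most of the marked 5′ ends lay in gene-poor sequence. No other protein-coding gene lay within 100 kb of 8 of the 9 genes, against 4.25% of all autosomal genes. The exception was Pcdh1, with Dele1 at 38.2 kb, and Pcdh8 passed only narrowly, with Cnmd at 105 kb. The nearest protein-coding gene was 3.60 Mb from Pcdh7, 2.12 Mb from Pcdh17, 1.99 Mb from Pcdh9 and 1.01 Mb from Pcdh10. The same 100 kb cutoff left 665 autosomal genes with a promoter window. H3K27me3 lay at 32.0% of these, H2AK119ub at 37.7% and both at 21.8%. The 8 members with a window, all within this class, had higher counts, with 6, 5 and 5 of 8. The class is not matched to these members, whose distances ran from 105 kb (Pcdh8) to 3.60 Mb (Pcdh7). Whether distance accounts for their counts was not tested. Isolated genes in general had H3K27me3 at the promoter more often than the 16.8% of all autosomal genes.

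The regions themselves were isolated too. Of the 10 H3K27me3 regions of the members, 4 lay over 1000 kb from the next H3K27me3 region on both sides, against 0.836% of 12914 autosomal regions, a distance chosen after the values had been seen. At 100 kb the count was 6 of 10, against 13.4%. For H2AK119ub it was 5 of 13 at 100 kb, against 3.28%, and 2 of 13 at 1000 kb, against 0.14%. The 4 H3K27me3 regions over 1000 kb away were the regions at Pcdh9, Pcdh10, Pcdh17 and Pcdh20. They are not separate observations, since the regions of Pcdh20 and Pcdh9 adjoin the same gap of 5.41 Mb. The gap of 4.66 Mb below the Pcdh17 region likewise ends at the Pcdh8 region. The median distance to the nearest region was 9.18 kb over all autosomal H3K27me3 regions, and regions at equally isolated genes were not compared. The Pcdh10 region lay 4.0 Mb from its neighbour on one side and 4.37 Mb on the other. The neighbour at 4.37 Mb was the Pcdh18 region, and the 4.31 Mb between Pcdh10 and Pcdh18 held 1 protein-coding gene and no region of either mark outside the windows. On chromosome 14 the 4.67 Mb from Pcdh8 to Pcdh17 and the 4.54 Mb from Pcdh20 to Pcdh9 were likewise empty of regions in the lists used here, whereas the 3.93 Mb from Pcdh17 to Pcdh20 held 2 H3K27me3 and 10 H2AK119ub regions. Non-coding genes were not so distant. The regions of Pcdh10 also covered one end of the lncRNA gene 2610316D01Rik, those of Pcdh17 one end of Gm32498 and those of Pcdh8 the lncRNA gene Gm9748, and the first H2AK119ub region of Pcdh7 overlapped 4932441J04Rik. A region at these ends cannot be assigned to the protocadherin alone.

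CG content varied widely among the 8 genes, and marked windows were found at both ends of its range. The delta-2 windows printed above held 26 CG dinucleotides at Pcdh17, 24 at Pcdh10, 23 at Pcdh18 and 14 at Pcdh8, against a median of 14 over 20085 autosomal protein-coding windows. The window of Pcdh9 with the higher-coordinate start held 18 and that of Pcdh7 held 11. Pcdh15 held 8, with neither mark, and Pcdh20 held 4, with both. Over all autosomal windows, those with both marks had a median of 16 CG dinucleotides, those with H2AK119ub alone 14, those with neither 13 and those with H3K27me3 alone 7. Windows with 0 to 4 CG dinucleotides, the class of Pcdh20, had both marks in 6.57% of 5526 cases. The share was 16.5% of 2925 windows with 5 to 9, the class of Pcdh15, and 18.0% of 4183 windows with 10 to 19, the class of Pcdh7, Pcdh8 and Pcdh9. It was 14.7% of 4217 windows with 20 to 29, the class of Pcdh10, Pcdh17 and Pcdh18, and 15.6% of 3234 windows with 30 or more. Both marks were thus least frequent in the lowest class, with no steady rise above it. These are counts over windows, which are not independent where a gene has several.

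**Figure D4:**
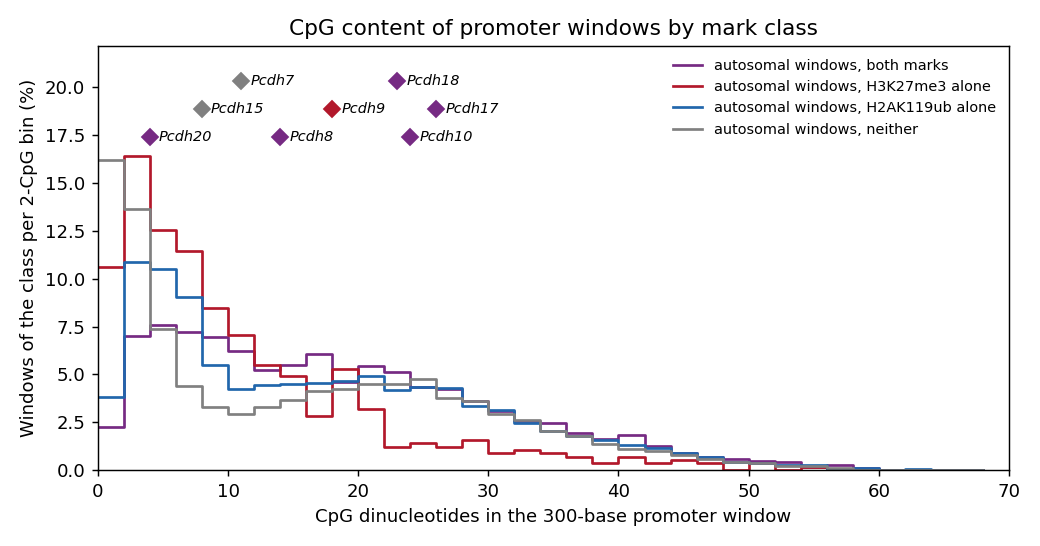
Distribution of the number of CG dinucleotides in the 300-base promoter window (x axis) for autosomal windows by mark class (lines, % of the class per bin), with the 8 protocadherin genes as diamonds in the colour of their class; the height of a diamond has no meaning. Marked members range from 4 (Pcdh20) to 26 (Pcdh17), and the unmarked windows of Pcdh15 and Pcdh7, at 8 and 11, lie between them.

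The motif in the delta-2 windows was noticed by reading these sequences and was then counted everywhere, on both strands. ATTGGNTGG contains ATTGG, the reverse complement of CCAAT, so each match is also a CCAAT match. It began 68 bases before the start in Pcdh8, 58 in Pcdh17, 50 in Pcdh10 and 32 in Pcdh18, in the direction of the gene in all 4. It was found in 2.2% of the 20085 autosomal windows, in 1.87% of the autosomal windows with both marks and in 2.12% of those with neither. The windows of Pcdh7, Pcdh9, Pcdh15 and Pcdh20 held no match, and neither did that of the X-linked delta-2 gene Pcdh19. The window of the cadherin gene Cdh18, which had neither mark, did hold one. Plain CCAAT was common, at 38.1% of autosomal windows, and occurred in those of 7 of the 8 members, Pcdh7 being the exception.

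Other genes of the superfamily gave a frame for these patterns. Of 40 cadherin, calsyntenin, Celsr, Fat and Dachsous genes, 28 had a promoter window, of which 8 had both marks, 5 H3K27me3 alone, 7 H2AK119ub alone and 8 neither. Both marks were widest at Cdh22, with 118 kb of H3K27me3 and 83.5 kb of H2AK119ub. Cdh15 with 10.6 kb and 57.3 kb, Celsr3 with 14.5 kb and 57.2 kb and Cdh23, the tip-link partner of Pcdh15, with 32.8 kb and 37.6 kb also had both. H3K27me3 alone, the state of Pcdh9, was found at Cdh6 (12.7 kb), Fat3 (9.52 kb), Cdhr1 (6.05 kb), Cdh8 (5.97 kb) and Cdh20 (5.94 kb). H2AK119ub alone, a state no member had at the promoter window itself, was widest at Fat2 (122 kb), Cdhr3 (104 kb), Clstn1 (93.9 kb) and Celsr2 (80.5 kb). Cdh10, Cdh12, Cdh18 and Cdh26 were among those with neither. The epidermal cadherin genes Cdh1 and Cdh3, chosen after their values had been seen, had no promoter window. H3K27me3 was absent from the gene body plus 20 kb of both, and H2AK119ub filled 29.4% of it at Cdh1 and 74.5% at Cdh3.

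The closest likeness to the members' median was sought among those 28 genes over 4 shares, each mark over the gene body plus 20 kb and within 5 kb of the start. Clstn3 lay at a Euclidean distance of 32.4 percentage points, Dchs2 at 32.8 and Clstn2 at 33.1. The 8 members with a promoter window lay at 9.25 (Pcdh20) to 96.7 (Pcdh15) from the same median. Only Pcdh20 lay nearer to it than Clstn3, followed by Pcdh17 at 32.8 and Pcdh18 at 34.7, so the median describes few of the members. It combines shares over the gene body plus 20 kb for all 9 members, Pcdh1 included, with shares around the start for the 8.

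Of the other non-clustered protocadherins, the X-linked Pcdh19 had both marks at its promoter, in regions of 158 kb and 19.1 kb, with 99.2% of its window in H3K27me3 and 53.5% in H2AK119ub. Pcdh11x on X met H3K27me3 (1.53% of its window) and no H2AK119ub. Pcdh12, near Pcdh1 on chromosome 18, had 7.31% and 71.9%. Genes for intracellular partners gave a mixed picture. Of 6 with a promoter window, Dab1 (24.7 kb of H3K27me3 and 15.6 kb of H2AK119ub) and Cyfip2 (27.3 kb and 10.9 kb) had both marks, Set had H2AK119ub alone (5.74 kb), and Abi1, Taok2 and Wasf1 had neither. Of 7 tip-link genes with a window, Cdh23 and Myo7a had both marks, Cib2 (48.7 kb), Tmie (39.7 kb) and Lhfpl5 (15.9 kb) had H2AK119ub alone, and Tmc1 and Ush1c had neither.

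The labelled cell type was checked at marker promoters. Krt5, Krt14, Col17a1 and Lamb3, the 4 basal epidermal markers with a window, had H2AK119ub alone. Krt8, Krt18, Krt20, Atoh1 and Isl1, markers of Merkel cells, all had both marks. The other lists were mixed. Of the melanocyte markers with a window, Mitf and Dct had H2AK119ub alone, as the basal markers did, and Tyr had neither mark. Of the suprabasal markers, Krt10 and Lor had both marks, Ivl had H2AK119ub alone and Flg neither. Pdgfra and Twist2 of the fibroblast list, Kdr of the endothelial list and Cd3e and Cd207 of the immune list had both, Col1a2 had H3K27me3 alone and Ptprc neither. The marks at these promoters therefore do not separate basal epidermal cells from every other type. RNA was not measured in these data, so whether any protocadherin is transcribed in these cells was not tested.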

How the data were processed

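For each mark the authors deposited the coordinates of called regions (columns chr, start, end, per the file headers), with no other unit. Per the submitters' processing notes, Bowtie2 2.3.3.1, SAMtools 1.9 and mm10 were involved, in roles not named there. Which caller and cutoff made the regions, how input was treated and whether the 2 libraries of a mark were joined first is not given in the sources used here. How many regions there are, and how wide, depends on them. A gene without a region may carry the mark below the threshold, and some rows may not have been analysed here.

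Starts were read as counted from 0. RefSeq gene spans on GRCm38.p6, which is mm10, were used, with starts, strands and sequences from the RefSeq promoter table. A gene was called marked when a region shared at least 1 bp with its body plus 20 kb, or with its promoter window. With 1 list per mark no test was made, and members are set beside all autosomal protein-coding genes. The plan named all protein-coding genes; X was left out after both versions had been computed, because no member is X-linked. Distances for isolation, the length class of 400 kb, the nesting of regions, the CG classes and the motif were also chosen after values had been seen. The grouping by delta branch was not in the plan. Overlap counts were tested on simulated regions, with 0 mismatches in 1000 windows. The members and lists were chosen with earlier results of these data known. All 9 members are named, and up to 4 genes per class of each comparison list by the widest region, alphabetically for genes with neither mark; H3K27me3 alone was given in full, with 5. Alternatives were other flanks, windows, minimum widths, overlaps, list sizes and start counting. Python 3.11.15, numpy 2.4.6, pandas 2.3.3 and matplotlib 3.10.9 were used.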

Additional observations from a re-analysis of the deposited data

How the results depend on the processing

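Counts of members with a mark stayed within 1.5 times in 33 of 36 combinations of result and setting. All 3 exceptions came from cutting the H2AK119ub list to the 15102 widest regions, of 9.06 kb or more. H2AK119ub was then met by 4 of 9 genes over the body plus 20 kb, against 7, and by 3 of 8 at the promoter window, against 5. Both marks at the promoter were then found at 3 of 8, against 5. Both marks over the body plus 20 kb were met by 4 of 9, against 6, which is just within the limit of 1.5 times. With 1 kb or 5 kb on either side of the start in place of the promoter window, H2AK119ub was met at 6 of 8 genes. Both marks stayed at 5, and Pcdh7 then had H2AK119ub alone. The shorter list drops narrow regions by construction. It could not change the H3K27me3 counts, which are among the 33. Main counts of 6, 7 or 8 of 9, and of 6 of 8, also could not rise beyond 1.5 times. Settings that only add genes, such as the flank of 50 kb, therefore left those counts within the limit by construction. The median covered share moved with the flank: it was 13.0% for H3K27me3 and 12.8% for H2AK119ub without a flank, and 6.11% and 4.73% with 50 kb, against 11.1% and 9.85% with 20 kb. The background was restricted to autosomes after both versions had been seen, which sets it further below the members for H3K27me3. With X-linked genes included, it was 44.5% for H3K27me3, 71.8% for H2AK119ub and 40.3% for both over the body plus 20 kb. At promoters it was 19.6%, 40.2% and 16.5%, for an H2AK119ub region inside the H3K27me3 region 37.7%, and for genes with no other within 100 kb 4.72%. No paired analysis was possible because each mark has 1 list and no replicate columns. Depth is unknown, so the size of a mark that could be missed is unknown too.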
